A study of Homo sapiens with 48 samples.

Results

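HK-2 cells that had been exposed to CsA for 48 h were compared, gene by gene, with HK-2 cells that had received vehicle for 48 h. The comparison rests on 6 of the 48 arrays in the series: 3 arrays labelled CsA at 48 h and the 3 control arrays of the same compound and time, all from the laboratory that the labels number 3. The arrays were taken by these labels and paired by biological replicate number, 1 to 3, with no measured value used for this. The comparison and the gene lists were chosen with earlier results of these data known. HK-2 is an immortalized line that was made from the proximal tubule epithelium of a human kidney, and all 6 cultures were of this 1 line, grown in a defined medium with EGF, insulin, transferrin and hydrocortisone. Cells were seeded 24 h before treatment and were treated near confluence, so the vehicle cells had also stood in culture for the same 48 h. The series was designed to find expression signatures of toxicity in such cells. The labels state no dose and no full name for CsA, and do not say what the vehicle was. The other arrays of the series (CsA and its vehicle at 12 h, and Fk, Ra, Nnm and their vehicles) entered the fit for the estimate of spread, and the CsA 12 h, Fk 48 h and Ra 48 h arrays are used below for comparison. Fk and Ra at 48 h were set against 3 vehicle arrays of their own, which are not those of CsA.

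A cell that is about to copy its DNA loads the MCM helicase onto origins, raises its supply of deoxynucleotides and makes polymerases, the sliding clamp and new histone chaperones. Transcription of many of these genes is driven by E2F factors, which are held back by RB proteins until cyclin E and CDK2 inactivate them. The genes of mitosis follow later in the cycle and are driven largely by MYBL2, FOXM1 and, at CCAAT boxes, NF-Y. Proteins destined for membranes or for secretion enter the endoplasmic reticulum through the SEC61 channel, lose their signal peptide, receive N-linked sugars, fold with the help of chaperones and protein disulfide isomerases, and leave in coated vesicles. When folding lags, ATF6 and XBP1 raise chaperone genes through the ER stress element, a CCAAT box followed at 9 bases by CCACG, and ATF4 and DDIT3 raise a further set of genes. The proximal tubule is a main site at which nephrotoxic drugs act in the kidney.

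Promoter sequences of 5 genes named below are shown here, so that their levels can be set against the letters in front of them. These windows were picked because they hold the motifs marked in them, so they do not stand for the other called genes. Of the 11356 genes tested, 9369 had a promoter window in the RefSeq table for GRCh38.p14, which reaches from 250 bases before to 50 bases after the transcript start. Of these, the 250 bases before the start are printed, read 5′ to 3′ on the strand of the gene. The first 3 belong to HELLS (chr10:94545538-94545787, plus strand), MCM6 (chr2:135876444-135876693, minus strand) and E2F1 (chr20:33686386-33686635, minus strand), which were lower in CsA cells and hold 2 E2F-type sites each. Capitals mark TTTCCCGC, TTTGGCGC or TTTGCCGC on either strand.
HELLS: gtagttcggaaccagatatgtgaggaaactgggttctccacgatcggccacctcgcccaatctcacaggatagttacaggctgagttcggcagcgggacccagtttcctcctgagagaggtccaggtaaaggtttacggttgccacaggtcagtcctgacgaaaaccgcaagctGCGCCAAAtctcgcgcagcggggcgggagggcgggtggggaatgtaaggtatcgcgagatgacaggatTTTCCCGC
MCM6: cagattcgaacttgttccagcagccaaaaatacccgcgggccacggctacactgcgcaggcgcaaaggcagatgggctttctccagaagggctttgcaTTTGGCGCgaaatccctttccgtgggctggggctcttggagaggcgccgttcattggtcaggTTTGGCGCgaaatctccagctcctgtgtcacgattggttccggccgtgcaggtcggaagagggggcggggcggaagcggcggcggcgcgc
E2F1: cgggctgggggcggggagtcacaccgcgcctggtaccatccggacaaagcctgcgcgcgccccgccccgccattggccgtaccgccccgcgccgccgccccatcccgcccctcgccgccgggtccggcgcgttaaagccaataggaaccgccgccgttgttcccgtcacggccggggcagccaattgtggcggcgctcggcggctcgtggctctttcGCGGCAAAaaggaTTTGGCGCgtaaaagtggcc
The other two belong to CANX (chr5:179698679-179698928, plus strand), an ER chaperone gene that was higher in CsA cells, and to HSPA5 (chr9:125241344-125241593, minus strand), an ER chaperone gene that did not pass the test. Capitals mark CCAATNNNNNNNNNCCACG on either strand.
CANX: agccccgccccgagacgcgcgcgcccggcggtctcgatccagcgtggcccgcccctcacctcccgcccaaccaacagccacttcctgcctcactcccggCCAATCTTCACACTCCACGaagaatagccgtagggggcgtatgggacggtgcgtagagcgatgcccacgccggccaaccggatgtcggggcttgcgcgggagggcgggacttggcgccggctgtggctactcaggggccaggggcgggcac
HSPA5: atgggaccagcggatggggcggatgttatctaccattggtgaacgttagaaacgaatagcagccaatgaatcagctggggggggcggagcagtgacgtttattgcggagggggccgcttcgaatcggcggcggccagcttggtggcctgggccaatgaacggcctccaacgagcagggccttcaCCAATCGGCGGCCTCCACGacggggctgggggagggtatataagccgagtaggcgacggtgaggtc
An E2F-type site stood in 2.85% of all 35116 promoter windows and in 4.60% of the windows of the genes tested. It stood in 18 of the 68 windows (26.5%) of cell cycle genes that were lower in CsA cells, beside 30 of the 176 windows (17.0%) of all cell cycle genes tested, and in 10 of the 23 windows (43.5%) of the origin licensing list. ASF1B, BRIP1, MCM10 and BLM, all called lower, had 0 such sites. The spaced CCAAT and CCACG motif stood in 0.0769% of all windows and in 0.149% of those of the genes tested. It stood in 6 of the 26 windows (23.1%) of the ER chaperone list, but in only 1 of the 32 windows of secretory pathway genes that were higher in CsA cells, that of CANX. The bare CCAAT box was frequent everywhere, in 34.6% of all windows and in 55.9% of those of the lower cell cycle genes. These matches describe letters in the windows and were not tested as binding sites.

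Levels were the deposited log2 values, so a difference of 1 is a doubling of the value, and correlations between the 6 arrays ran from 0.976 to 0.995. Genes were tested with limma in 1 fit over all 48 arrays, with the replicate number within each set of arrays as a block, and a gene was called where its p, adjusted by Benjamini and Hochberg, was under 0.05. The arrays numbered 3 stood apart from those numbered 1 and 2 in the whole CsA set, in treated and vehicle cells and at both times. Between numbers 3 and 1, 935 of the 11356 genes differed by over 1 on the log2 scale after the treatment groups were taken out, against 27 genes between numbers 2 and 1. The neutrophil gelatinase-associated lipocalin LCN2, a marker of tubular injury, shows the size of this difference. Its values were 5.28, 8.15 and 13.3 in CsA cells, in the order of the replicate numbers, and 3.67, 7.85 and 12.8 in vehicle cells. Both groups covered almost the same range, and what separated the arrays was the replicate number. The block takes out of the comparison the part of such differences that is common to all groups of the set. Differences between replicate numbers that vary with treatment or time stay in it. Counts without pair 3 are given for the lists with 3 or more called genes. Outside the CsA set the Ra array of replicate 2 at 48 h stood apart, with an upper quartile over all probe sets of 6.20 against 6.85 to 7.24 in the other 47 arrays. It entered the estimate of spread, and counts without it, chosen after the data were seen, are given where they change. The labelled cell type was checked against markers. PAX8, CDH6, KRT8, KRT18 and EPCAM, 5 of 12 renal epithelial markers, had group means above log2 4 in CsA and in vehicle cells, while LRP2, CUBN, AQP1, ANPEP, SLC34A1, GGT1 and PAX2 lay below it in both groups. Of the fibroblast markers 3 of 10 were above it (COL1A1, DCN and LUM), of the other nephron segments 2 of 8 (PODXL and SYNPO), of the endothelial markers 1 of 10 in CsA cells and 2 of 10 in vehicle cells, and of the leukocyte markers 0 of 9 in either group. The summed log2 level of the fibroblast list was 42.3 to 45.9 in CsA cells and 46.2 to 48.6 in vehicle cells, and its part in the results was not tested.

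In total 498 of the 11356 genes (4.39%) were called, 165 higher (1.45%) and 333 lower (2.93%) in CsA cells. The median difference over all genes was 0.00. Falls were larger than rises: the median called fall was -1.04 and the median called rise 0.79, with 183 falls and 44 rises of more than 1 on the log2 scale. Of the 498 genes 493 had the same sign in all 3 pairs, which was the case for 50.3% of all genes. In 295 of them the 3 CsA values did not overlap with the 3 vehicle values, which was the case for 14.2% of all genes. Since the calls were made from these same pairs, both counts follow largely from the selection and are no separate support. Genes of the cell cycle lists and genes of the secretory pathway lists lay on opposite sides. Of 206 cell cycle genes tested 78 were called lower and 1 higher, with a median difference of -0.68, and of 158 secretory pathway genes tested 35 were called higher and 0 lower, with a median of 0.49. In RNA from whole cultures, fewer cells of a type, such as fewer cells in S phase, and less RNA per cell cannot be told apart.

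**Figure D1:**
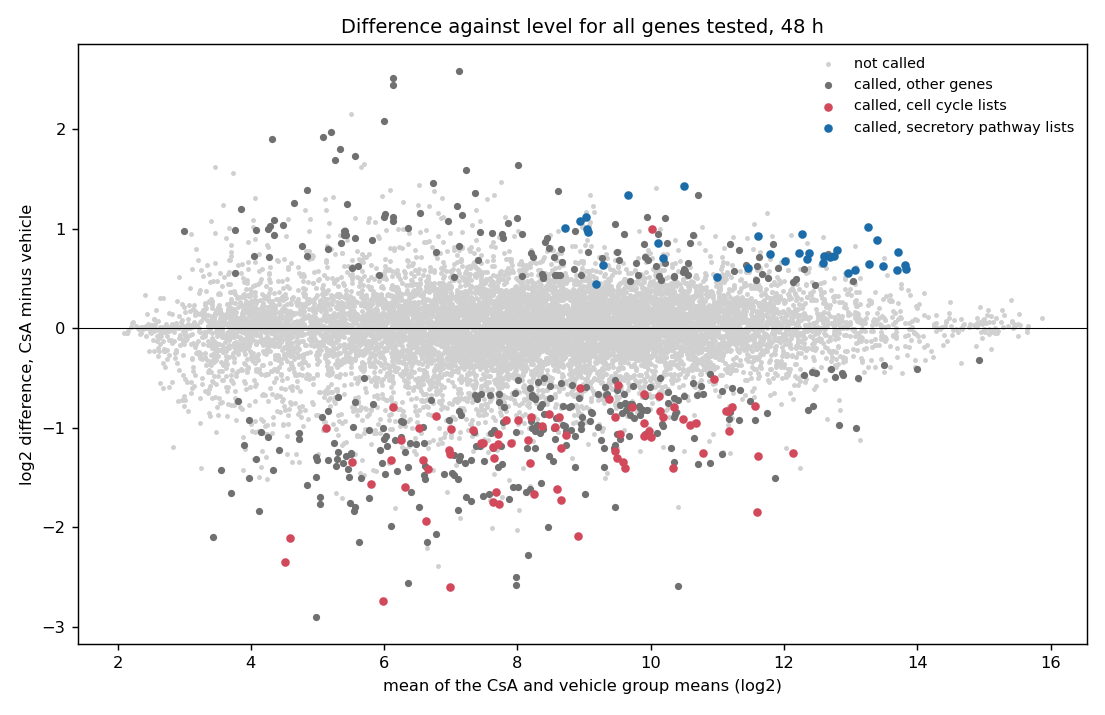
Log2 difference between CsA and vehicle at 48 h (vertical axis) against the mean of the 2 group means (horizontal axis, log2) for the 11356 genes tested, 1 point per gene. Called cell cycle genes lie below 0 except CDKN1A at 1.00, and the 35 called secretory pathway genes all lie above 0, mostly at high levels.

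The number of calls depended on how the spread was estimated and on single arrays. Without the block 116 genes were called (34 higher and 82 lower), all of them among the 498. In the CsA set alone, 12 arrays with the block, 13 genes were called, of which 11 were among the 498, although 396 of the 498 had an adjusted p under 0.1 there. In the 6 arrays alone limma called 0 genes with or without the block, and 3037 and 980 genes had an unadjusted p under 0.05. The lowest adjusted p there was 0.0543 with the block. The median standard deviation of the 3 pair differences was 0.213, below the 0.375 that the pooled fit implies. At the median, the spread taken from all sets was therefore wider than that measured between these pairs. This did not hold for every called gene. The SE of ASF1B was 0.32 in the fit over all arrays and 0.42 in the CsA set alone, while that of B4GALT6 was 0.24 and 0.17. Leaving out the Ra array of replicate 2 at 48 h, which is in neither group, raised the count to 840 (303 higher and 537 lower). Leaving out the CsA array of replicate 2 left 8 calls, and leaving out the vehicle array of replicate 1, the CsA array of replicate 3 or the vehicle array of replicate 3 left 108, 188 and 272. Leaving out pairs 1, 2 and 3 in turn left 312, 97 and 117. Whichever pair was left out, 48 genes were called, 35 lower and 13 higher in CsA cells, and 6 of these (ASF1B, B4GALT6, OR7E156P, CHPF, FBXO36 and LINGO2) were also called without any single array and without the block.

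**Figure D2:**
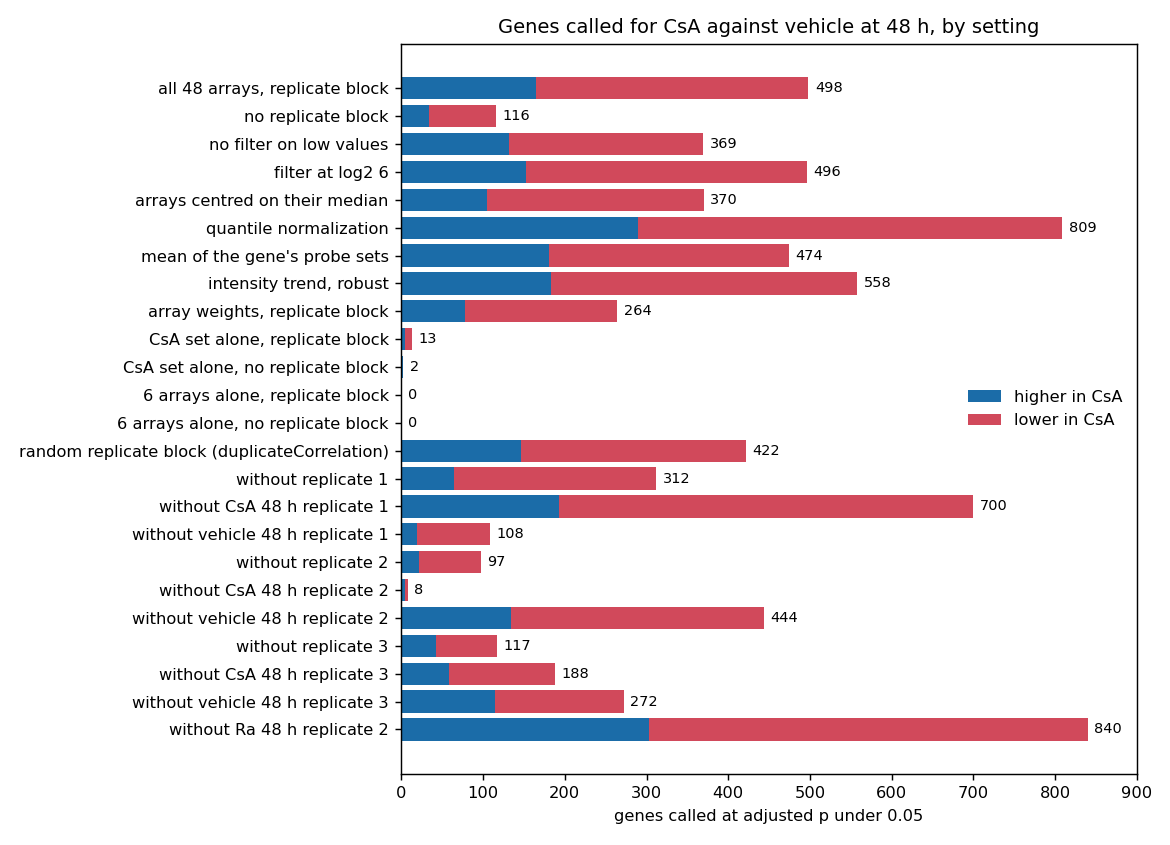
Number of genes called at an adjusted p under 0.05 for CsA against vehicle at 48 h (horizontal axis) under each setting (vertical axis), with bars split into genes higher and genes lower in CsA cells. The count is 498 in the fit over all 48 arrays with the block, 116 without it, 8 when the CsA array of replicate 2 is left out and 840 when the Ra array of replicate 2 is left out.

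The genes that load and start the replicative helicase were lower in CsA cells. Of the 27 genes of this list that were tested, 17 were called lower and 0 higher, and the median difference was -0.95, with medians of -0.76, -1.17 and -0.98 in pairs 1, 2 and 3. MCM6, a subunit of the MCM helicase, had log2 values of 10.6, 9.33 and 8.96 in CsA cells and 11.5, 10.7 and 10.9 in vehicle cells. All 3 CsA values lay below the lowest vehicle value. The difference was -1.40 ± 0.24 (SE), with an adjusted p of 0.00177. MCM10, which helps to activate the loaded helicase, had 3.22, 2.72 and 4.08 in CsA cells and 6.54, 4.58 and 5.94 in vehicle cells, a difference of -2.35 ± 0.42 (adjusted p = 0.00189). Its CsA values were near or below log2 4, where the array resolves little. MCM4, a further helicase subunit, differed by -1.73, the loading factor CDT1 by -1.66, GINS2 of the active helicase by -1.62 and the origin-binding subunit ORC1 by -1.60, all 4 called. Without the block 9 members of the list were called, without pair 3 there were 8, and without the CsA array of replicate 2 there were 0.

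Polymerases, the clamp and fork proteins moved the same way. Of 34 tested genes 19 were called lower and 0 higher, with a median of -0.83. ASF1B, a chaperone that hands histones to new DNA, had the lowest adjusted p of all genes. Its values were 6.97, 4.31 and 5.79 in CsA cells and 8.66, 7.85 and 8.37 in vehicle cells, a difference of -2.60 ± 0.32 (adjusted p = 5.42e-05). The groups did not overlap, and the CsA array of replicate 2 was the lowest of the 6. PCNA, the sliding clamp that tethers polymerases to DNA, had 12.2, 11.03 and 11.2 in CsA cells and 13.2, 12.4 and 12.7 in vehicle cells, a difference of -1.25 ± 0.23 (adjusted p = 0.00194). The highest CsA value lay just below the lowest vehicle value. The nuclease-helicase DNA2 differed by -1.93, the clamp loader subunit DSCC1 by -1.77, the polymerase epsilon subunit POLE2 by -1.64 and the polymerase alpha subunit POLA2 by -1.32, all 4 called. Without the block 10 members were called, without pair 3 there were 6, and without the CsA array of replicate 2 there was 1.

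Deoxynucleotide supply was affected in the genes of dTTP and of ribonucleotide reduction, 5 of 23 tested genes, all lower, with a list median of -0.22. TYMS, which makes dTMP, had 11.5, 10.1 and 11.3 in CsA cells and 12.4, 11.8 and 12.6 in vehicle cells, a difference of -1.29 ± 0.24 (adjusted p = 0.00228). RRM2 and RRM1, the subunits of ribonucleotide reductase, differed by -1.85 and -1.03, thymidine kinase TK1 by -1.41 and DUT, which removes dUTP, by -0.79. Without pair 3 only 1 member of this list was called. Of the genes for recombination, crosslink repair and the checkpoint, 10 of 33 were called lower and 0 higher, with a median of -0.41. HELLS, a chromatin remodelling helicase, had 8.96, 7.09 and 7.52 in CsA cells and 10.7, 9.35 and 9.81 in vehicle cells, a difference of -2.09 ± 0.39 (adjusted p = 0.00233). The helicases BRIP1 and BLM differed by -2.74 and -2.11, the exonuclease EXO1 by -1.42 and FANCI of the Fanconi pathway by -1.36. Of this list 6 members were called without pair 3 and 5 without the block. UHRF1, which brings the methyltransferase DNMT1 to replicated DNA, fell by 2.00 ± 0.36 (adjusted p = 0.00194).

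The genes that decide entry into S phase included the transcription factor itself. Of 31 tested genes 9 were called lower and 1 higher, with a median of -0.29. E2F1 had 5.94, 5.52 and 5.59 in CsA cells and 6.73, 7.06 and 6.65 in vehicle cells, a difference of -1.13 ± 0.21 (adjusted p = 0.00222). The groups did not overlap, and E2F1 was 1 of the 11 among the 498 genes that were also called in the CsA set alone. The cyclins E, CCNE2 and CCNE1, differed by -1.74 and -1.34, the repressor E2F8 by -1.57, SKP2, which targets CDK inhibitors for degradation, by -1.19, and MYBL2 by -1.07. Of this list 5 members were called without pair 3 and 4 without the block. CDKN1A, the CDK inhibitor p21 and a p53 target, was the 1 gene of the list that was higher. It had 9.96, 10.8 and 10.8 in CsA cells and 8.86, 9.73 and 9.97 in vehicle cells, so that the lowest CsA value lay just under the highest vehicle value. The difference was 1.00 ± 0.27 with an adjusted p of 0.0305, and it was not called without the block (0.33) or without any 1 of the 3 pairs (0.18, 0.095 and 0.092). The CDK inhibitor CDKN1B had 11.04, 10.98 and 10.5 in CsA cells and 11.3, 10.8 and 10.6 in vehicle cells, a difference of -0.07 ± 0.22 (adjusted p = 0.92). Of 24 p53 targets tested, CDKN1A was called higher and FAS lower (8.33%, beside 4.39% of all genes), with a median of 0.21.

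All 42 tested genes of G2 and mitosis had a negative difference, with a median of -0.77, and 17 of them were called lower. The proliferation marker MKI67 had 9.16, 7.88 and 9.96 in CsA cells and 10.1, 9.52 and 10.6 in vehicle cells, a difference of -1.06 ± 0.28 (adjusted p = 0.028). Its CsA value of replicate 3 overlapped with the vehicle range, although each CsA array lay below its own vehicle array. The condensin subunit NCAPH differed by -1.32, the centriole kinase PLK4 by -1.31, the kinetochore motor CENPE by -1.16, the midzone motor KIF23 by -1.15 and the cleavage furrow protein ANLN by -1.08. This list had its largest fall in pair 2, with a median of -1.25, against -0.68 in pair 1 and -0.54 in pair 3. Only 2 of its members were called without the block, 0 without pair 2 and 4 without pair 3. Of 16 histone genes and histone mRNA processing genes, NASP, a histone chaperone, was the 1 called, at -0.80, and 3 were called without the Ra array that stood apart.

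**Figure D3:**
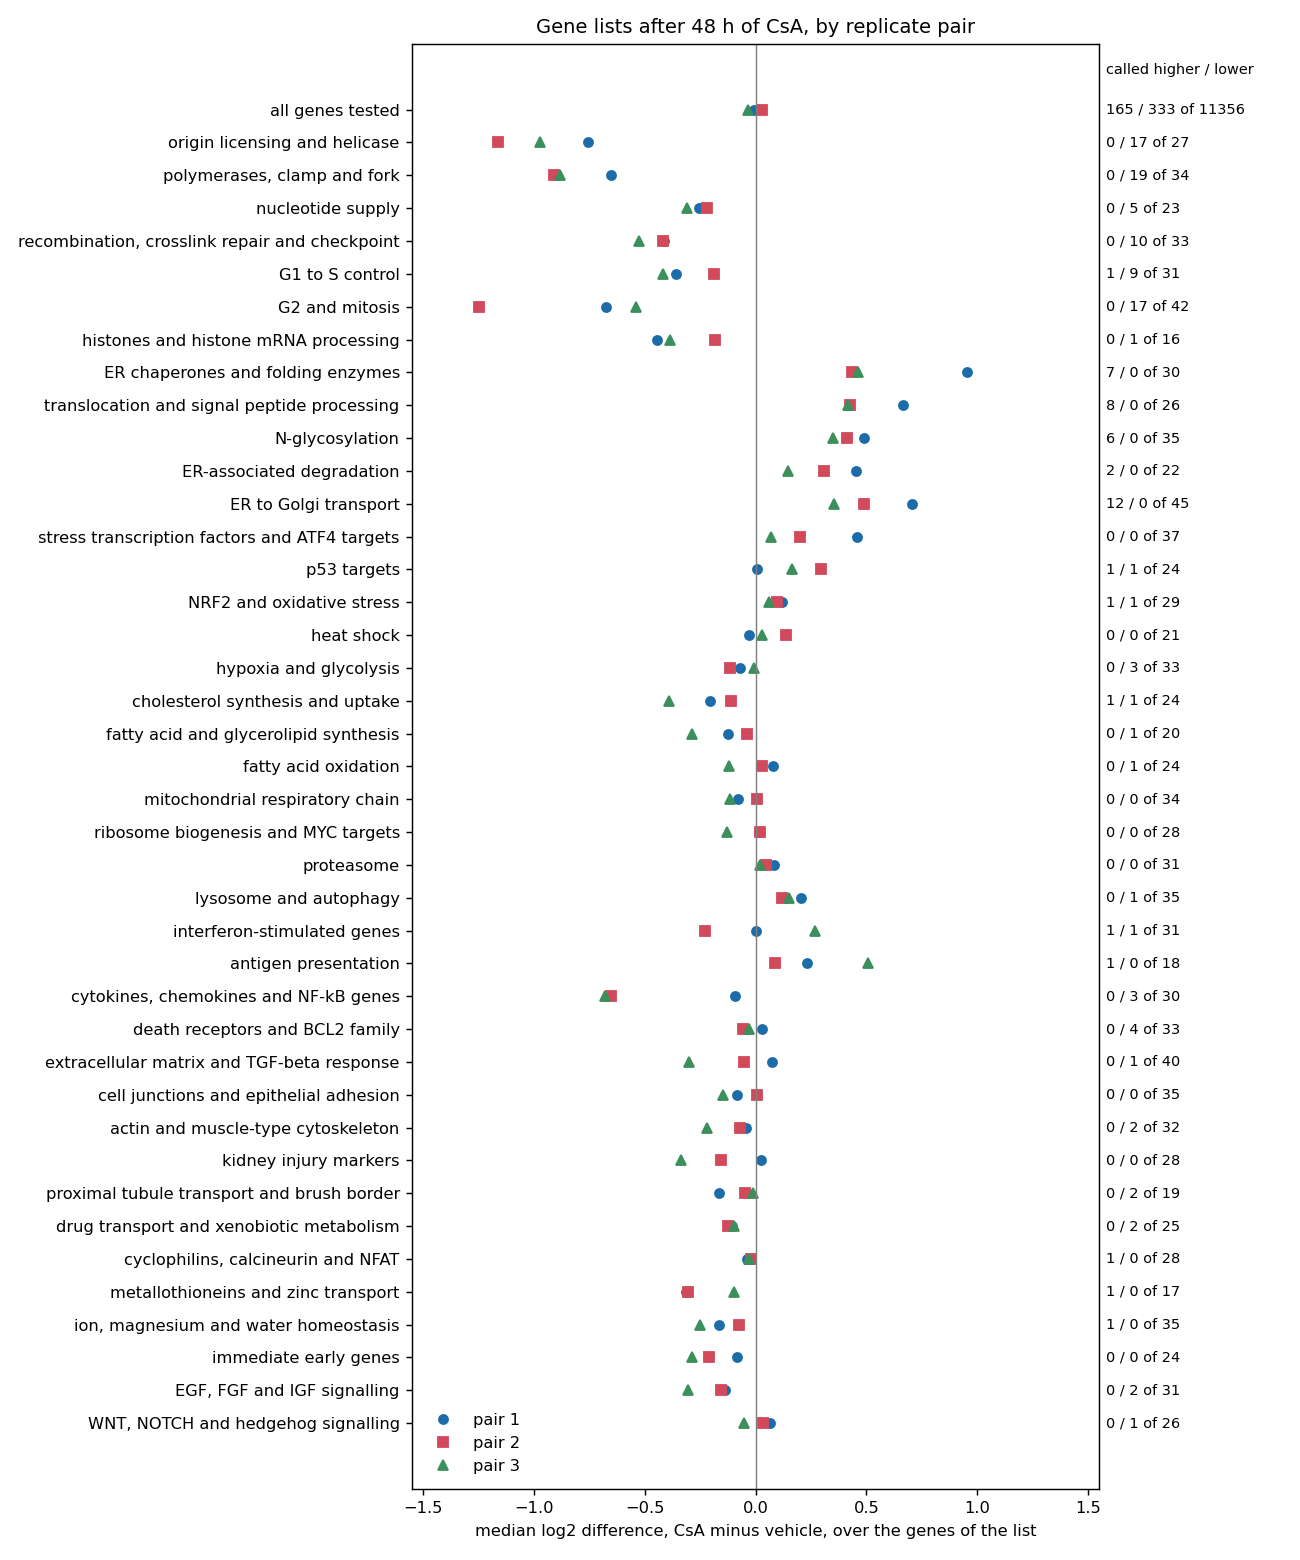
Median log2 difference between CsA and vehicle at 48 h (horizontal axis) over the tested genes of each list (vertical axis), with 1 symbol per replicate pair, and the numbers of genes called higher and lower at the right. The 3 pairs lie on the same side of 0 for all 7 cell cycle lists (below) and all 5 secretory pathway lists (above), and the 3 symbols for all genes lie near 0.

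Chaperones and folding enzymes of the ER were higher in CsA cells. Of 30 tested genes 7 were called higher and 0 lower, with a median of 0.65, and pair 1 had a larger median (0.96) than pairs 2 and 3 (0.43 and 0.46). PPIB, the cyclophilin of the ER, had 13.6, 13.9 and 13.8 in CsA cells and 12.1, 13.2 and 13.0 in vehicle cells, a difference of 1.02 ± 0.24 (adjusted p = 0.0122). The CsA values lay close together and above all 3 vehicle values, of which the first was the lowest. The disulfide isomerase PDIA3 differed by 0.88, the nucleotide exchange factor SIL1 by 1.00, ERP44, which retains client proteins, by 0.92, the reductase DNAJC10 by 0.66 and the lectin chaperone CANX by 0.64. HSPA5, the main ER chaperone and the usual readout of ER stress, was not among them. It had 15.3, 15.6 and 15.7 in CsA cells and 14.8, 15.4 and 15.6 in vehicle cells, near the top of the array's scale, with a difference of 0.29 ± 0.27 (adjusted p = 0.67). Of this list 1 member was called without the block, 1 without pair 1 and 1 without pair 3.

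Entry into the ER and trimming of the signal peptide gave 8 called of 26 tested genes, all higher, with a median of 0.49. SEC11C, a catalytic subunit of signal peptidase, had 10.8, 11.6 and 11.2 in CsA cells and 8.97, 10.4 and 9.93 in vehicle cells, a difference of 1.43 ± 0.35 (adjusted p = 0.0173). The channel subunits SEC61A1 and SEC61B differed by 0.95 and 0.72, the translocon-associated proteins SSR1 and SSR2 by 0.76 and 0.72, and SRP72 of the signal recognition particle by 0.69. Their SEs were 0.16 to 0.27, and 0 members of the list were called without pair 1, 2 without pair 3 and 13 without the Ra array that stood apart. N-glycosylation gave 6 called of 35 tested, all higher, with a median of 0.36. DAD1, a subunit of the oligosaccharyltransferase, had 12.2, 12.4 and 12.4 in CsA cells and 11.4, 11.8 and 11.8 in vehicle cells, a difference of 0.68 ± 0.14 (adjusted p = 0.0061). Small as it was, this difference was larger than the range of either group. The other transferase subunits STT3A, RPN1, OSTC and DDOST differed by 0.85, 0.75, 0.72 and 0.59, and GMPPA, which regulates GDP-mannose supply, by 1.34. Of this list 2 members were called without the block, 1 without pair 1, 2 without pair 3 and 10 without the Ra array that stood apart.

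Transport between ER and Golgi had the most called members of the secretory lists, 12 of 45 tested, all higher, with a median of 0.50. COPG1, a coat subunit of COPI vesicles, had 9.43, 9.55 and 9.80 in CsA cells and 8.17, 8.28 and 8.98 in vehicle cells, a difference of 1.11 ± 0.19 (adjusted p = 0.00182). The groups did not overlap, and COPG1 was called whichever pair was left out. PREB, which recruits the COPII coat, differed by 1.00, the SNARE protein GOSR2 by 0.97, the cargo receptors LMAN1 and TMED9 by 0.79 and 0.76, and the Golgi tether GOLGB1 by 0.70. ER-associated degradation gave 2 called of 22 tested (9.09%, beside 4.39% of all genes), with a list median of 0.25. They were EDEM2, which trims mannose, at 1.07 and the lectin ERLEC1 at 0.75. Without the block 2 members of the transport list and 0 of the degradation list were called, and without pair 3 these counts were 1 and 0. Without the Ra array that stood apart they were 22 and 6.

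**Figure D4:**
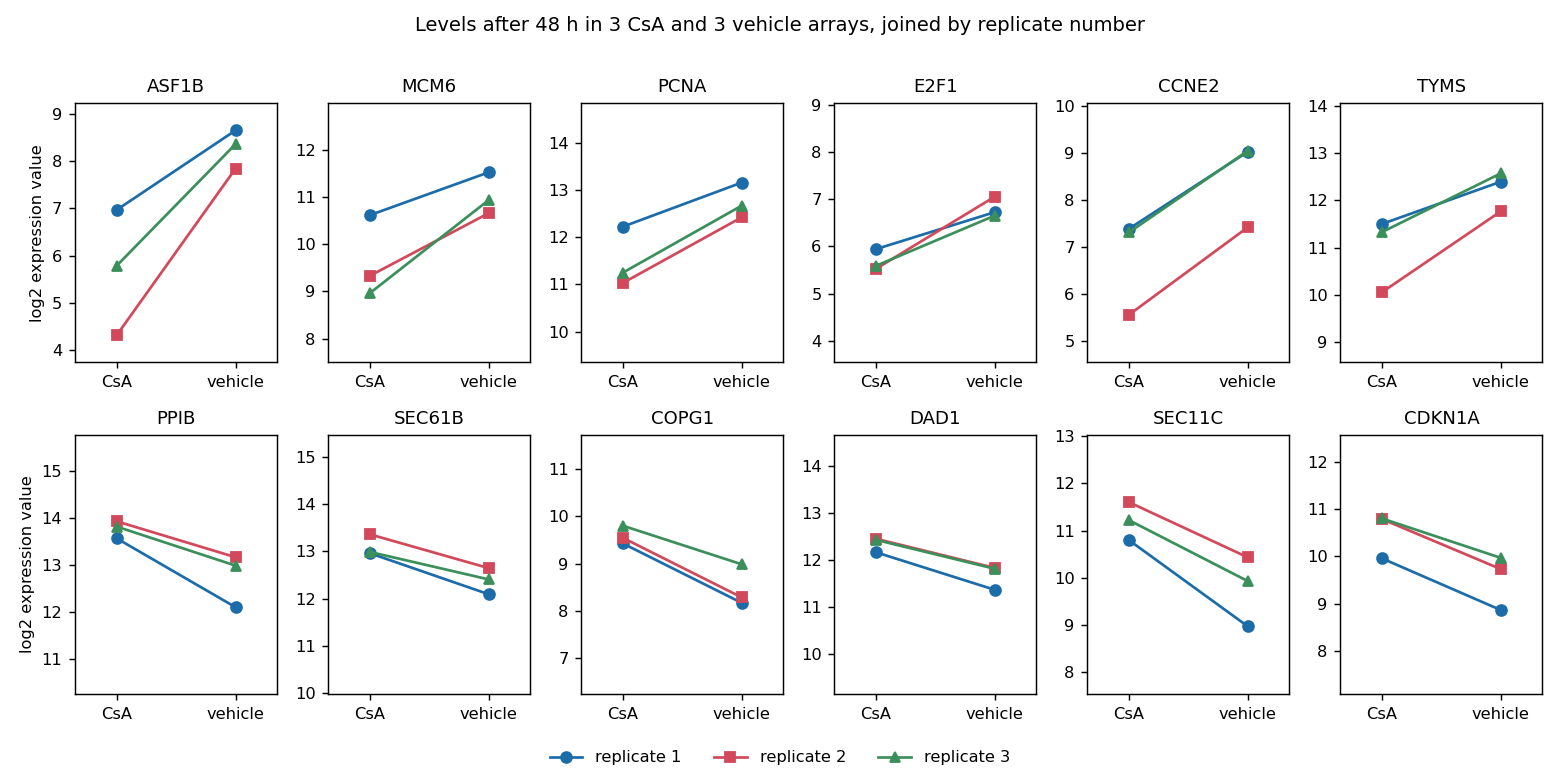
Log2 values (vertical axes, each spanning the same range) of 6 genes lower and 6 genes higher in CsA cells, in the 3 CsA arrays (left) and the 3 vehicle arrays (right), with lines that join arrays of the same replicate number. All 36 lines of the 12 panels run in the direction of their gene's called difference, upward to vehicle in the top row and downward in the bottom row. The genes were taken from the called ones, so this follows largely from the selection.

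Genes of the ATF4 and DDIT3 branch were not called. Of 37 tested genes in that list 0 passed, beside 4.39% of all genes, and the median was 0.26. The difference was positive for 31 and negative for 6 of them, beside 5732 positive among all 11356 genes. The medians in pairs 1, 2 and 3 were 0.46, 0.20 and 0.07, so the absence of calls does not show that these genes were unchanged. DDIT3 (CHOP), a transcription factor raised in ER stress, had 13.1, 13.5 and 13.7 in CsA cells and 12.4, 13.3 and 13.8 in vehicle cells, a difference of 0.28 ± 0.65 (adjusted p = 0.9). ATF4 differed by 0.27 ± 0.21 (adjusted p = 0.56), HERPUD1 by 0.27 ± 0.46 (0.84) and the activin subunit gene INHBE by 0.69 ± 0.79 (0.74). All of these genes already stood high in the vehicle cells: INHBE averaged 11.7 ± 0.18 in vehicle cells at 48 h and 6.23 ± 0.61 in vehicle cells at 12 h (SD, n = 3 each). Heat shock genes (21 tested), respiratory chain genes (34), ribosome biogenesis genes (28), proteasome genes (31), immediate early genes (24) and junction genes (35) also had 0 members called, with medians between -0.19 and 0.06. Without the Ra array that stood apart, 1 heat shock, 2 respiratory chain, 1 proteasome and 1 junction gene were called.

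The largest called rises outside these lists were spread over unrelated functions. CIMAP1B, which codes for a microtubule-associated protein of cilia, had 7.46, 8.47 and 9.31 in CsA cells and 4.39, 5.04 and 8.08 in vehicle cells, a difference of 2.58 ± 0.45 (adjusted p = 0.00184). The rise was smallest in pair 3, where vehicle was already high. SNORC, a proteoglycan gene of cartilage, had 6.56, 7.53 and 8.07 in CsA cells and 2.50, 5.40 and 6.74 in vehicle cells (2.51 ± 0.50, adjusted p = 0.00414). The lysosomal membrane protein LAMP3 differed by 2.44 ± 0.63, the cytokine receptor subunit IL20RB by 2.08, the nebulin relative NEBL by 1.97, TMEM140 by 1.92, the serine protease PRSS16 by 1.80, the secretory vesicle protein SYTL1 by 1.73, the RNA gene CARINH by 1.69, BEX5 by 1.64, the divergent transcript MAP4K3-DT by 1.59 and the exonuclease ISG20 by 1.46. Several of these rested on vehicle levels near log2 4 in at least 1 array.

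The largest called falls outside the cell cycle included metabolic and tubular genes. PDK4, which inhibits pyruvate dehydrogenase and so spares glucose, had 10.05, 8.91 and 8.39 in CsA cells and 12.3, 11.3 and 11.5 in vehicle cells, a difference of -2.59 ± 0.60 (adjusted p = 0.0122). The groups were separated by more than 1 log2 unit. DEFB1, an antimicrobial peptide of tubular epithelium, had 8.83, 6.21 and 5.04 in CsA cells and 10.3, 8.87 and 8.61 in vehicle cells (-2.58 ± 0.65, adjusted p = 0.0201). The carotenoid oxygenase BCO2 differed by -2.56, BRI3BP by -2.50, the GABA and taurine transporter SLC6A13 by -2.28, RIBC2 and LRRN4 by -2.15 each, and the adhesion docking protein NEDD9 by -2.07. Of PDK4, DEFB1, BCO2, SLC6A13 and BRI3BP, 0 were called without pair 2 or without pair 3. CCM2L, with a CsA mean below log2 4, had the most negative difference of all genes, -2.90 ± 0.47 (adjusted p = 0.00177), from values of 5.61, 2.56 and 2.41 in CsA cells and 6.84, 6.24 and 6.19 in vehicle cells. B4GALT6, a glycosphingolipid galactosyltransferase, differed by -1.58 ± 0.24 and A1BG by 1.08 ± 0.18.

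Lipid, glucose and cytoskeletal lists had 1 to 3 members called each, or 4.17% to 9.09% of their tested genes, beside 4.39% of all genes. In the hypoxia and glycolysis list 3 of 33 were called, and 0 without pair 3, all lower: PFKFB3, a driver of glycolytic flux, at -1.17, PGAM1 at -0.45 and LDHA at -0.41. ACAT2, of the mevalonate pathway, was lower at -1.21 and the cholesterol exporter ABCA1 higher at 0.66, the 2 called of 24 cholesterol genes. DGAT2, which makes triglyceride, was lower at -1.50. In the oxidative stress list the plasma glutathione peroxidase GPX3 was lower at -0.78 and the ER peroxiredoxin PRDX4 higher at 0.44. They were the 2 called of 29 genes (6.90%). ACTB, often used as a constant gene, differed by -0.32 ± 0.09 (adjusted p = 0.0304), with 14.8, 14.5 and 15.1 in CsA cells and 15.0, 15.0 and 15.3 in vehicle cells. In the matrix and TGF-beta list COL4A1, a chain of basement membrane collagen, was the 1 called of 40, at -1.36 ± 0.29 (adjusted p = 0.00727). TGFB1 itself had 9.29, 9.25 and 9.34 in CsA cells and 8.25, 9.11 and 9.08 in vehicle cells, and its difference of 0.48 ± 0.30 was not called (adjusted p = 0.44). CCN2, a target of TGF-beta and YAP, had 9.10, 7.68 and 3.05 in CsA cells and 9.58, 9.03 and 7.26 in vehicle cells. Pair 3 carried most of its difference of -2.01 ± 0.68 (adjusted p = 0.087).

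The called cytokine and death receptor genes were all lower in CsA cells, as were 333 of all 498 called genes. The called share was 10% of cytokine, 12.1% of death receptor, 6.45% of interferon and 5.56% of antigen presentation genes, beside 4.39% of all genes. The calls are too few to set these lists apart. Among 30 cytokine and NF-kB genes 3 were called lower and 0 higher, with medians of -0.09, -0.66 and -0.68 in pairs 1, 2 and 3, and 2 were called without pair 3 and 0 without pair 2. IL1B had 3.29, 3.14 and 3.23 in CsA cells and 5.25, 4.76 and 4.17 in vehicle cells, a difference of -1.51 ± 0.33 (adjusted p = 0.00786), with all CsA values in the range where the array resolves little. The chemokine gene CCL2 had 3.72, 3.43 and 2.45 in CsA cells and 6.19, 6.20 and 2.73 in vehicle cells, a difference of -1.84 ± 0.54 (adjusted p = 0.048). Its fall was carried by pairs 1 and 2, since CCL2 was low in the vehicle array of replicate 3 as well. NFKB1 differed by -0.54. In the death receptor and BCL2 list 4 of 33 were called lower and 0 higher, and 1 was called without pair 3. The death ligand TNFSF10 (TRAIL) had 11.6, 10.6 and 11.1 in CsA cells and 12.5, 12.4 and 12.9 in vehicle cells, a difference of -1.50 ± 0.33 (adjusted p = 0.00832). The groups did not overlap for TNFSF10. CASP2 differed by -0.89, FAS by -0.81 and CASP6 by -0.71. Of the interferon list OAS3 fell by 1.00 and ISG20 was higher, 2 of 31 genes, and of the antigen presentation list the ER aminopeptidase ERAP1 was higher (0.66). Growth factor and developmental signalling lists gave FGFR1 (-1.03), PDGFC (-0.62) and FZD1 (-1.20), and the other called members of lists were KCNMA1 (0.68), SLC30A5 (0.54) and the lysosomal enzyme GLA (-0.83).

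The kidney lists gave 0 to 2 calls each, too few to set the lists apart. The called share was 0% of injury markers, 10.5% of transport and brush border genes and 8% of drug transport genes, beside 4.39% of all genes. Of 28 kidney injury markers tested 0 were called, with a median of -0.13. HAVCR1 (KIM-1), which is shed by injured tubules, had 10.5, 9.31 and 9.84 in CsA cells and 10.9, 10.3 and 10.4 in vehicle cells, a difference of -0.64 ± 0.28 (adjusted p = 0.22). CLU differed by -0.34 ± 0.17 (0.3), SPP1 by -0.10 ± 0.10 (0.68), LCN2 by 0.81 ± 0.57 (0.52), HMOX1 by 0.52 ± 0.55 (0.71), GDF15 by 0.22 ± 0.44 (0.87) and VIM by 0.09 ± 0.10 (0.74). CDH1 (E-cadherin) had 9.51, 9.66 and 5.93 in CsA cells and 8.99, 8.75 and 4.0 in vehicle cells, a difference of 1.11 ± 0.35 that was not called (adjusted p = 0.062, and 0.0199 without the Ra array that stood apart). Each CsA array lay above its own vehicle array, but the arrays of replicate 3 lay far below the others. Of 19 transport and brush border genes the Na,K-ATPase subunit FXYD2 fell by 1.00 and the cystine transporter subunit SLC3A1 fell by 1.29. FXYD2 was not called without pair 2 (adjusted p = 0.19) or without pair 3 (0.28). The drug exporter ABCB1 had 9.25, 8.48 and 9.94 in CsA cells and 9.61, 9.66 and 10.9 in vehicle cells, a difference of -0.82 ± 0.22 (adjusted p = 0.0305, and 0.42 without the block). CYP1B1, which oxidises xenobiotics, differed by -1.66.

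Cyclophilins are peptidyl-prolyl isomerases, and calcineurin is the phosphatase that activates NFAT factors. Of 28 genes for cyclophilins, calcineurin and NFAT factors 1 was called (3.57%, beside 4.39% of all genes). It was PPIB, which the ER list also holds. The cytosolic cyclophilin PPIA had 14.8, 14.7 and 14.9 in CsA cells and 14.9, 15.0 and 15.0 in vehicle cells, a difference of -0.18 ± 0.08 (adjusted p = 0.24). The mitochondrial cyclophilin PPIF differed by -0.20 ± 0.19 (0.66). RCAN1, whose expression NFAT raises, differed by -0.02 ± 0.27 (0.99), and the glucose-sensing gene TXNIP by -0.23 ± 0.71 (0.93). PDE9A and DRC10, at 0.65 and -1.06, were called in the CsA set alone and not in the fit over all arrays (adjusted p of 0.22 and 0.11). PDE9A averaged 3.79 in CsA cells and 3.13 in vehicle cells, both below log2 4, where the array resolves little.

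The cell cycle and ER genes also differed between 48 h and 12 h in vehicle cells, a comparison that shares the 3 vehicle arrays at 48 h with the one described so far. There 2734 genes (24.1%) were called. The licensing list had a median of -0.97 between vehicle at 48 h and vehicle at 12 h, beside -0.95 between CsA and vehicle at 48 h, and the mitotic list -1.17 beside -0.77. The ER chaperone list had 0.88 beside 0.65, and the ATF4 list 1.53 beside 0.26. Group means show how the levels stood. MCM6 averaged 9.64 ± 0.87 in CsA cells at 48 h and 11.04 ± 0.44 in vehicle cells at 48 h, and at 12 h 11.9 ± 0.40 in CsA cells and 12.0 ± 0.50 in vehicle cells (SD, n = 3 each). PPIB averaged 13.8 ± 0.19 in CsA cells and 12.7 ± 0.57 in vehicle cells at 48 h, and 12.3 ± 0.32 in CsA cells and 11.7 ± 0.35 in vehicle cells at 12 h. PDK4 and TNFSF10, lower in CsA cells at 48 h, differed by -0.05 (adjusted p = 0.98) and -0.39 (0.44) between vehicle cells at 48 h and vehicle cells at 12 h, and neither passed the test there.

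At 12 h 1 gene (0.00881%) was called between CsA and vehicle, with 92 at an unadjusted p under 0.05. It was QRFPR, a neuropeptide receptor gene named here after its value was seen, at -1.51 ± 0.21 (adjusted p = 0.000518), and at 48 h it differed by -0.60 (adjusted p = 0.093). The difference between the 48 h and 12 h effects, tested itself, gave 0 called genes, with 713 at an unadjusted p under 0.05 and a lowest adjusted p of 0.0863. ASF1B had -2.60 at 48 h and -0.34 ± 0.32 at 12 h (adjusted p of the difference 0.089), and HSPA5 had 0.29 at 48 h and 0.99 ± 0.27 at 12 h (0.84). The licensing list had medians of -0.95 at 48 h and -0.06 at 12 h, the G2 and mitosis list -0.77 and -0.19, and the ER chaperone list 0.65 and 0.38.

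Fk and Ra at 48 h were measured against other vehicle arrays, so these comparisons share no array with CsA. The labels state no doses, so whether these matched is unknown. They name laboratory 3 for the CsA set and no laboratory for Fk and Ra. Differences between the compounds therefore cannot be told apart from differences between the sets of arrays. Fk gave 8 calls (0.0704%), and the difference between the CsA and Fk effects gave 20 (0.176%), 1 higher and 19 lower for CsA, 0 without the block and 40 without the Ra array that stood apart. ASF1B had -2.60 under CsA and 0.12 under Fk, a difference of -2.72 ± 0.45 (adjusted p = 0.00762). ANKRD36B had -1.19 under CsA and 1.19 under Fk (adjusted p of the difference 0.00444), the matrix protein gene LTBP2 -1.46 and 0.99, the prostaglandin transporter SLCO2A1 -1.32 and 1.10, the transcript annotated as MIR146A, of which the mature microRNA was not measured, -1.99 and 0.31, and THUMPD3-AS1 0.82 and -0.22, all with an adjusted p of 0.0222 to 0.0339 for the difference. The list medians under Fk were closer to 0, at -0.21 for licensing, -0.04 for G2 and mitosis and 0.04 for ER chaperones. The difference was not called for PPIB (0.95 ± 0.34, adjusted p = 0.25), MCM6 (-1.21 ± 0.33, 0.13) or MKI67 (-1.23 ± 0.40, 0.21).

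Ra gave 3241 calls (28.5%), 676 higher and 2565 lower, and the CsA and Ra effects differed for 3011 genes (26.5%), 2102 higher (18.5%) and 909 lower (8%) for CsA. After quantile normalization 1575 were higher and 1583 lower, and the median of all genes was -0.18 under Ra as deposited. Without the Ra array of replicate 2, which stood apart, Ra gave 2049 calls, 1108 higher and 941 lower, with a median of 0.00 over all genes, and the CsA and Ra effects differed for 2669 genes, 1220 higher and 1449 lower for CsA. The balance of higher and lower calls therefore turned with that array. The lists lay on opposite sides under the 2 compounds. The licensing list had medians of -0.95 under CsA and 0.72 under Ra, and the effects differed for 19 of its 27 genes, 18 of them lower for CsA. The G2 and mitosis list had -0.77 under CsA and 0.70 under Ra, with 39 of 42 genes lower for CsA. The transport list had 0.50 under CsA and -0.47 under Ra, with 36 of 45 genes higher for CsA, and the ATF4 list 0.26 and -1.81, with 30 of 37 higher for CsA. Without that Ra array the medians under Ra were 0.84 for licensing, 0.92 for G2 and mitosis, -0.37 for transport and -1.51 for the ATF4 list, and 29 of 45 transport genes and 25 of 37 ATF4 genes were higher for CsA. INHBE had 0.69 under CsA and -6.63 under Ra, a difference of 7.33 (adjusted p = 5.29e-05). TNFSF10 had -1.50 under CsA and 1.57 under Ra, a difference of -3.08 (adjusted p = 4.76e-05), and PDK4 -2.59 and 1.70, a difference of -4.30 (adjusted p = 0.000621). The vehicle levels of TNFSF10 and PDK4 at 48 h were unlike in the 2 sets. TNFSF10 averaged 12.6 in the CsA vehicle and 10.8 in the Fk and Ra vehicle, beside 11.1 in CsA and 12.4 in Ra cells. PDK4 averaged 11.7 and 9.21 in these vehicles, beside 9.11 in CsA and 10.9 in Ra cells. For INHBE the vehicles were alike, at 11.7 and 11.8.

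**Figure D5:**
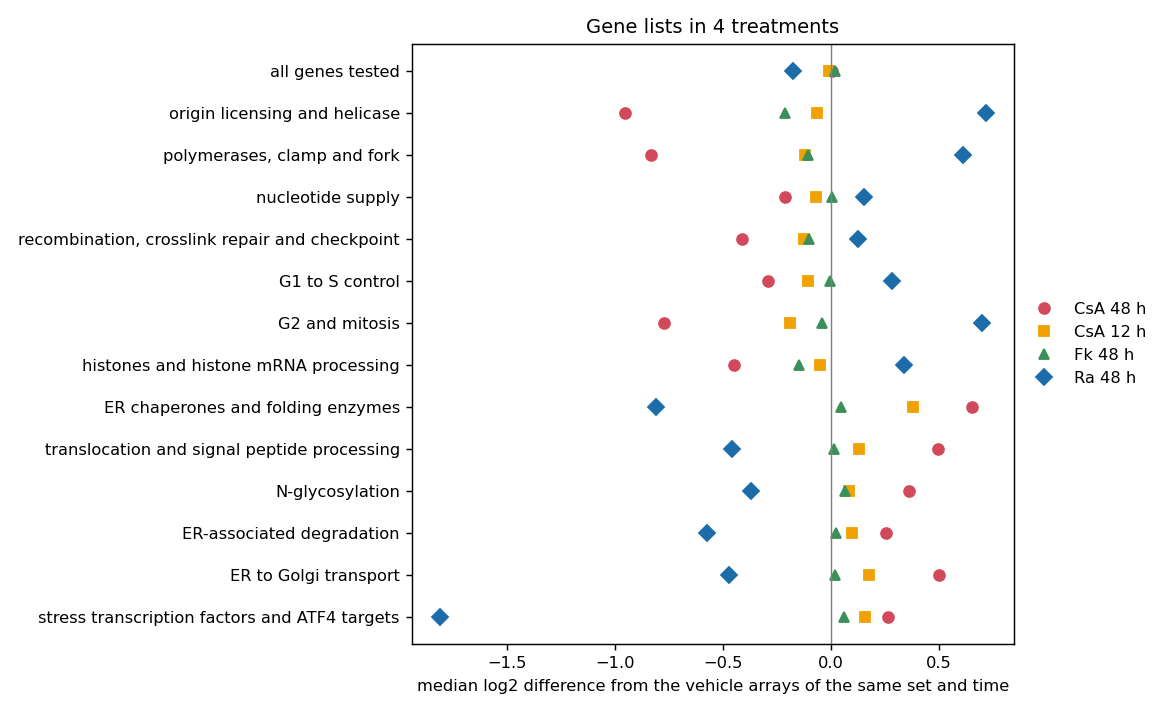
Median log2 difference from vehicle (horizontal axis) over all genes tested and 13 gene lists (vertical axis) for CsA at 48 h and 12 h and for Fk and Ra at 48 h. CsA at 48 h has the lowest medians of the 4 for the cell cycle lists and the highest for the secretory pathway lists, Fk lies closer to 0 and Ra on the other side.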

How the data were processed

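RNA from 48 HK-2 cultures was measured on 1 array each. The deposited table holds log2 expression values for 54675 probe sets, which the submitters' processing notes attribute to GCRMA without a version. These values were used as deposited. Probe sets with 1 gene symbol in the platform annotation (41091 of them, while 1801 had several and 11721 none) were kept where 3 arrays exceeded log2 4, and the probe set with the highest mean stood for its gene, which gave 11356 genes.

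Groups, times and replicate numbers came from the labels, which call the replicates biological. The 16 group means were fitted with limma 3.58.1 (R 4.3.3), with replicate number within each of the 3 sets of arrays as a block (26 residual degrees of freedom), and p-values were adjusted by Benjamini and Hochberg over all genes. The script was tested on simulated data. Within the CsA set, deviations from the group mean correlated at 0.243 to 0.926 in 18 pairs of same-numbered arrays of different groups. In 36 pairs with different numbers they correlated at -0.847 to 0.698, a range that overlaps. The mean was 0.538 for the same number and -0.233 for different numbers. The numbers were taken to pair the arrays, also in the other sets, where this was not examined. The numbers pair treated and vehicle arrays, and the array labels mention no shared day or culture. Arrays give no counts, so their number, 3 per group, limits the precision.

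The comparison, the 45 gene lists and the tests were chosen with earlier results of these data known. Named genes were the 12 largest called rises and falls with both group means at log2 4 or more and 1 sign in all pairs, genes called in the CsA set alone, up to 6 called members of each list, 25 genes named whatever their result, and the 6 largest each way in each difference of effects. Of the 25, 1 is not reported here. The spaced CCAAT motif was added after the others had been searched. Alternatives were other filters, scalings, probe set rules, blocks, array weights, smaller sets of arrays and single arrays or pairs left out. Leaving out the Ra array of replicate 2 at 48 h was added after seeing the data.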

Additional observations from a re-analysis of the deposited data

How the results depend on the processing

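The count of 498 genes stayed within 1.5 times with no filter on low values, a filter at log2 6, median centring, the mean of a gene's probe sets, an intensity trend or a random replicate block. It became 116 with no replicate block, 809 after quantile normalization, 264 with array weights, 13 and 2 in the CsA set alone with and without the replicate block, and 0 in the 6 arrays alone with or without the block. With single arrays or pairs left out it ranged from 8 to 840, and the 840 came without the Ra array of replicate 2 at 48 h. The difference between the 48 h and 12 h effects gave 0 genes, but 2 with no filter, 5 with the mean of probe sets and 5 with array weights. The difference between the CsA and Fk effects gave 20, but 0 with no replicate block, 35 after quantile normalization, 40 without that Ra array and 322 with array weights. The difference between the CsA and Ra effects gave 3011, and 1873 with no replicate block. The cause of these changes was not tested. None of the 121 called genes followed through these alternatives changed sign in those that tested them. Some uncalled genes near 0 did. With single arrays or pairs left out CDKN1B ranged from -0.27 to 0.025, DDIT3 from -0.059 to 0.60, GDF15 from -0.0896 to 0.44, RCAN1 from -0.20 to 0.14 and TXNIP from -0.52 to 0.043. With array weights RCAN1 became 0.11. The number of arrays and, below about log2 4, the signal over background limit what can be resolved.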

Other observations

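Genes that do not code for protein were counted among the calls after these had been seen. Of the 165 genes called higher in CsA cells 19 (11.5%) were non-coding RNA genes or pseudogenes by RefSeq, against 6 of the 333 called lower (1.80%) and 500 of the 11356 tested (4.40%). Among the higher ones were the antisense RNA EML2-AS1, with 4.44, 4.44 and 4.49 in CsA cells and 3.28, 3.25 and 3.25 in vehicle cells (1.20 ± 0.22, adjusted p = 0.00194), and the olfactory receptor pseudogene OR7E156P (0.94, adjusted p = 0.00164). OR7E12P and OR7E37P, of the same family of pseudogenes, differed by 0.80 and 0.87. These pseudogenes are close copies of each other, so the split of signal between their probe sets is uncertain. Several of the 19 genes had vehicle means below log2 4, where the array resolves little, such as EML2-AS1 (3.26), SERPINB9P1 (3.28) and RFPL1S (3.58). Others stood well above it, such as GIHCG (9.38) and OR7E37P (7.97).

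Some of the largest differences between replicate numbers were in genes of inflammation. In IL6, TNFAIP6 and CLEC4E the CsA and vehicle arrays of replicate 3 differed by more than those of replicates 1 and 2. IL6 had 4.47, 4.42 and 6.89 in CsA cells and 4.58, 6.60 and 10.0 in vehicle cells at 48 h. TNFAIP6 had 2.96, 2.69 and 4.71 in CsA cells and 2.80, 2.83 and 8.91 in vehicle cells. CLEC4E had 3.60, 3.77 and 10.2 in CsA cells and 3.69, 3.99 and 12.5 in vehicle cells. At 12 h the CLEC4E values of replicate 3 were 13.4 in CsA cells and 13.5 in vehicle cells. These genes came from those with the largest differences between replicates 3 and 1 and were named for the wider gap in replicate 3. Others among those did not show it: in LCN2, with values given above, CsA and vehicle arrays differed most in replicate 1. These values carry no test.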
